A study of Mus musculus with 3 samples.

Results

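TBX5 bound 786 regions of the E14.5 mouse heart that the deposited annotation classes as active and non-promoter, that overlap no TBX3 region, and whose summit lies over 50 kb and at most 100 kb from the assigned transcription start. They were chosen by these 3 deposited columns alone and make up 6.32% of the 12436 TBX5 peaks. Of all peaks, 6237 were active non-promoter peaks and 4488 of those lacked a TBX3 region. The measurement was chromatin immunoprecipitation and sequencing (ChIP-seq) of 2 TBX5 samples and 1 input sample, all from dissected hearts of embryos of CD-1, an outbred mouse stock, with no genetic change or treatment named in any group. The input is the same kind of chromatin without precipitation, and no sample lacking TBX5 was analysed here. Peaks were called once on the pooled TBX5 samples, so no value per replicate was analysed here, the spread between hearts could not be computed, and no test between samples was possible. A whole heart mixes cardiomyocytes with endothelial, epicardial, fibroblast, smooth muscle and blood cells, and a peak does not say in which of them TBX5 was bound.

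TBX5 is a T-box transcription factor that the heart and forelimb need to form, and in people its loss causes Holt-Oram syndrome. Enhancers are stretches of DNA that raise transcription of a gene from a distance, often through a loop that brings them to its promoter. Acetylation of histone H3 at lysine 27 (H3K27ac) and methylation at lysine 4 (H3K4me1) are the marks most used to find active enhancers, while H3K4me3 is typical of promoters, H3K9ac of active chromatin in general, and H3K27me3 and H3K9me3 of silent chromatin. TBX3, a related T-box factor that represses the working myocardial programme in the conduction system, binds similar DNA. The annotation of marks comes from region files of another consortium whose tissue and stage the labels and headers leave unstated, so "active" names a class of that table and enhancer activity was not measured.

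Assigned starts also carried TBX5 peaks in some cases. The DNA just before 4 such starts is shown because each belongs to a gene whose strongest distal peak had a higher fold than the start. These starts were chosen after their values were seen. The sequences are from RefSeq on GRCm38.p6 (the assembly of mm10), run 5′ to 3′ on the strand of the gene and end 1 base before the start. Capitals mark AGGTGT, the core letters of a T-box site, where a search of both strands found them. The windows are chr3:126596701-126596950 on the plus strand (Camk2d), chr17:73107735-73107984 on the plus strand (Lclat1), chr2:31245673-31245922 on the plus strand (Ncs1) and chr3:115888060-115888309 on the minus strand (A930005H10Rik).
Camk2d: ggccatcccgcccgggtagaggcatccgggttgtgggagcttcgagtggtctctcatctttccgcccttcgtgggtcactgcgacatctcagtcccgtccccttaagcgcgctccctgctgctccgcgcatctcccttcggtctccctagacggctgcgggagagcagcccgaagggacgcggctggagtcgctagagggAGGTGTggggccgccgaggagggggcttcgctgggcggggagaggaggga
Lclat1: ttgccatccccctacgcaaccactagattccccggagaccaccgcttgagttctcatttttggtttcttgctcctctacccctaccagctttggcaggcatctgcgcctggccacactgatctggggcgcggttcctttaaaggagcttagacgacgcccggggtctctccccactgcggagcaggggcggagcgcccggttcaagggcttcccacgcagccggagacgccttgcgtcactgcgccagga
Ncs1: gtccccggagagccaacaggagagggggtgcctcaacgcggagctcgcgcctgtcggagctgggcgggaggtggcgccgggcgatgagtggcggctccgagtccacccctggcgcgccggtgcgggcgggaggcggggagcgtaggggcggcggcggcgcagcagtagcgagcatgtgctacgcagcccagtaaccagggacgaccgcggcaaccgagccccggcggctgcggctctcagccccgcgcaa
A930005H10Rik: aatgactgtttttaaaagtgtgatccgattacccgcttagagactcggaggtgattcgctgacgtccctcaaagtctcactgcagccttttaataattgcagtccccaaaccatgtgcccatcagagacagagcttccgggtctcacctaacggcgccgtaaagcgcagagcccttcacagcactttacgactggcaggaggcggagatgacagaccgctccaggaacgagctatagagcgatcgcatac

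Only the Camk2d window among these 4 held the T-box letters, 50 bases before the start, at chr3:126596901-126596906, inside the TBX5 peak at chr3:126596804-126597221. Camk2d encodes the main cardiac isoform of calcium/calmodulin-dependent kinase II. The peak at its start had 4.36-fold enrichment (3.04 to 6.07) and the peak 63.9 kb inside the gene 8.57-fold (5.98 to 11.9). Fold enrichment, as deposited by the authors, divides the pooled TBX5 signal at a peak's highest point (its summit) by the local background, and the bracketed range is the exact 95% Poisson interval of the fragment count with the background held fixed. It covers counting error only.

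The assigned starts of these distal peaks that had a TBX5 promoter peak of their own numbered 77, and 58 of them were matched in the RefSeq table of start sequences. Among these 58, 2 windows of 250 bases held AGGTGT or its reverse complement ACACCT (3.45%, exact Clopper-Pearson 95% interval 0.420 to 11.9). The share among all 32851 starts of the table was 11.8%. The GATA letters AGATAA stood in 3 of 58 (5.17%, 1.08 to 14.4, against 9.99% of all starts) and the NKX2-5 letters AAGTG in 16 (27.6%, 16.7 to 40.9, against 40.7%). The TEAD letters GGAATG stood in 4 (6.90%, 1.91 to 16.7, against 12.6%) and the E-box CAGCTG in 8 (13.8%, 6.15 to 25.4, against 13.0%). Each of these intervals, and that of the T-box letters, contains the share of all starts. Both strands were searched, and none of these motifs contains another. These matches describe the windows at the starts and say nothing of the distal regions, whose own sequence was not read here.

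Of the 786 distal regions, 23 were assigned to the start of a microRNA gene, 19 such genes in all, with folds from 3.03 to 23.8 and a median of 5.57. A start could be matched to a gene for 499 of the 786 only, so 23 (4.61% of those matched) is a lower limit. The same share over all peaks was not computed here. MicroRNAs lower the output of messenger RNAs that pair with their seed, bases 2 to 8. Mature sequences were found for 18 of the 19 genes, and their 28 mature forms had 28 different seeds. The 4 shown belong to the gene with the strongest of these peaks and to 2 miRNA genes known from heart and fibrosis studies, chosen after their values were seen, with the seed in capitals.
mmu-miR-21c: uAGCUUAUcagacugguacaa
mmu-miR-490-5p: cCAUGGAUcuccaggugggu
mmu-miR-490-3p: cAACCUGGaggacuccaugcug
mmu-miR-29a-3p: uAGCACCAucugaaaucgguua

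The Mir21c peak, at chr8:128223532-128224034, had 23.8-fold enrichment (19.2 to 29.2) from 90 fragments, and its nearest protein-coding gene was Nrp1, a receptor for semaphorins and VEGF, 134.8 kb away. Mir490 lies inside Chrm2, the muscarinic receptor through which the vagus nerve slows the heart. The 2 peaks assigned to it, at chr6:36508001-36508334 and chr6:36508482-36508763, also lie in the Chrm2 body and had 11.3-fold (8.75 to 14.3) and 4.39-fold (2.82 to 6.55) enrichment. The Mir29a peak at chr6:31011578-31011810 had 7.51-fold enrichment (5.00 to 10.9). A miRNA start that is assigned to a peak is not thereby its target.

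The median fold enrichment of the 786 regions was 6.19 (exact 95% interval of the median 5.92 to 6.44), from 2.71 to 58.8. The lower quartile was 4.85 and the upper quartile 9.21. The pileup, that is how many fragments of both TBX5 samples together cover the summit, had a median of 22 (range 9 to 307), the median background 2.47 fragments and the median width 264 bp. In 375 regions (47.7%, 44.2 to 51.3) the authors' −log10 q reached at least 10, against 41.5% of all peaks. Enrichment of at least 20-fold was reached by 57 regions (7.25%, 5.54 to 9.29), against 4.07% of all peaks. Neither share was particular to this window. Active peaks without TBX3 at 2 to 10, 10 to 50 and over 100 kb reached that q in 46.2, 49.5 and 55.1%. They reached 20-fold in 6.03, 5.86 and 8.19%. Active peaks without TBX3 at other distances had median folds of 5.92 at 2 to 10 kb, 6.18 at 10 to 50 kb and 6.85 beyond 100 kb, and their median backgrounds were 2.83, 2.83 and 2.26. Their pileups were nearly the same, at 22, 22 and 23 fragments. At 50 to 100 kb, active peaks that overlap TBX3 regions (262 peaks) had a median fold of 6.05 (5.57 to 6.50) and poised peaks without TBX3 (302 peaks, H3K4me1 without H3K27ac) one of 6.56 (6.23 to 6.96), both intervals overlapping that of the 786 regions.

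**Figure D1:**
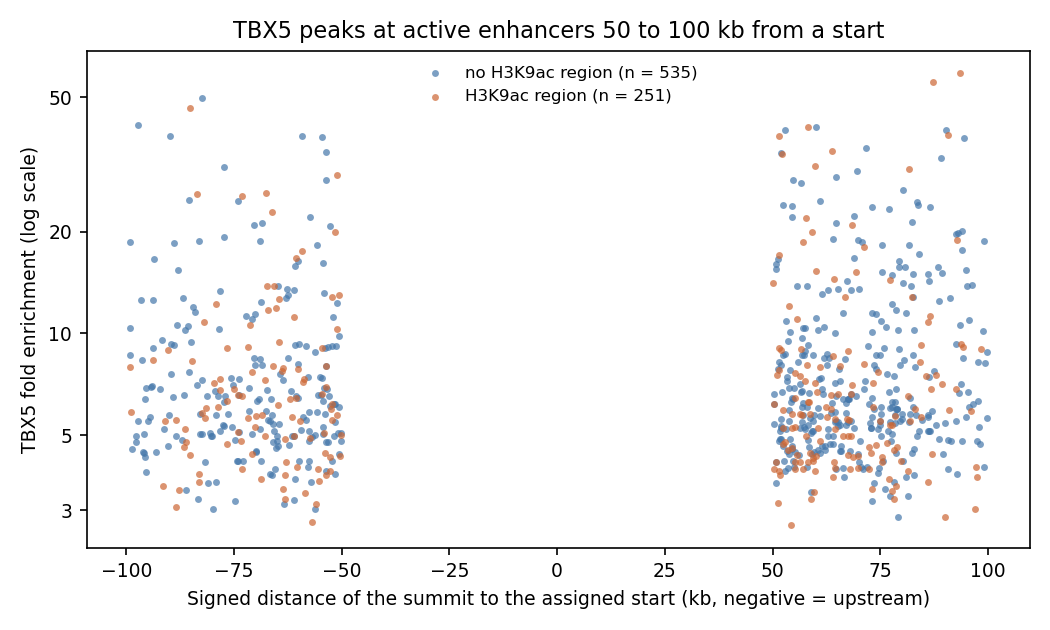
TBX5 fold enrichment (log scale) of the 786 regions against the signed distance of the summit to the assigned start in kb, negative upstream, with the 251 regions that overlap H3K9ac in orange and the other 535 in blue. Points of all folds stand across the whole window on both sides, and the gap in the middle is the 50 kb limit of the rule.

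At the limits of the window, the region just inside 50 kb lay in or nearest to Tnrc6a (50020 bp, 14.1-fold, 10.6 to 18.4) and the peak just outside it at Add3 (49982 bp, 3.75-fold, 2.24 to 5.95). Just inside 100 kb stood a peak at Rnf144b (99719 bp, 5.61-fold, 3.29 to 9.02), and just outside it one at Tbx20 (100357 bp, 3.92-fold, 2.34 to 6.22). The 5 lowest folds ran from 2.71 to 3.03. The largest background, 7.77 fragments, belonged to a 4.90-fold peak (3.57 to 6.59) in Gm34296 whose assigned start was that of Arid1a, a chromatin remodelling subunit.

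The strongest of the 786 peaks lay in the body of Cdh2, at chr18:16715464-16715950, 93.5 kb downstream of its start. Cdh2 encodes N-cadherin, which joins cardiomyocytes at the intercalated disc. This peak had 58.8-fold enrichment (50.9 to 67.6) from 196 fragments and overlapped H3K27ac, H3K4me1 and H3K9ac regions. A pair of weaker peaks of the same gene, at 69.7 and 68.3 kb, had 4.01-fold (2.52 to 6.09) and 6.62-fold (4.51 to 9.41) enrichment, and the counting interval of the strongest lay far above both. The peak at the Cdh2 start, which overlaps a TBX3 region, had 2.85-fold enrichment (1.83 to 4.25).

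Second in the ranking stood a peak outside any gene, at chr5:107051874-107052434, 54.4 kb from the nearest body, that of Tgfbr3. Tgfbr3 encodes betaglycan, a co-receptor that presents TGF-beta ligands. The fold was 55.3 (48.4 to 62.8) from 232 fragments. It stood in a run of 3 regions over 10.4 kb, the other two at 4.04-fold (2.62 to 5.97) and 8.24-fold (6.12 to 10.9). The third, at chr6:33946810-33947383 in Exoc4, a subunit of the exocyst that tethers secretory vesicles, had 49.6-fold enrichment (42.3 to 57.7), and its assigned start was that of the next gene, Lrguk.

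Between Lbh and Lclat1 on chromosome 17, whose starts lie 189.7 kb apart, stood 3 of the 786 regions. Lbh encodes a transcriptional cofactor named for its expression in limb bud and heart, and Lclat1 an acyltransferase that remodels cardiolipin, the lipid of the inner mitochondrial membrane. The peak at chr17:72976206-72976954, 58.1 kb from the Lbh start, had 40.9-fold enrichment (34.5 to 48.1). The peak at chr17:73014147-73014628, 96.0 kb from it, had 16.7-fold enrichment (13.6 to 20.3). The peak at chr17:73022373-73023120, 104.5 kb from it and 85.2 kb from the Lclat1 start, had 46.3-fold enrichment (41.3 to 51.8) from 307 fragments, the largest pileup among the 786. The other 7 peaks from 20 kb before Lbh to 20 kb past the Lclat1 start had 4.01-fold to 10.4-fold enrichment. The intervals of the 40.9-fold and 46.3-fold peaks lay above those of all 7, while that of the 16.7-fold peak overlapped the interval of the strongest of them (10.4-fold, 7.30 to 14.4).

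**Figure D2:**
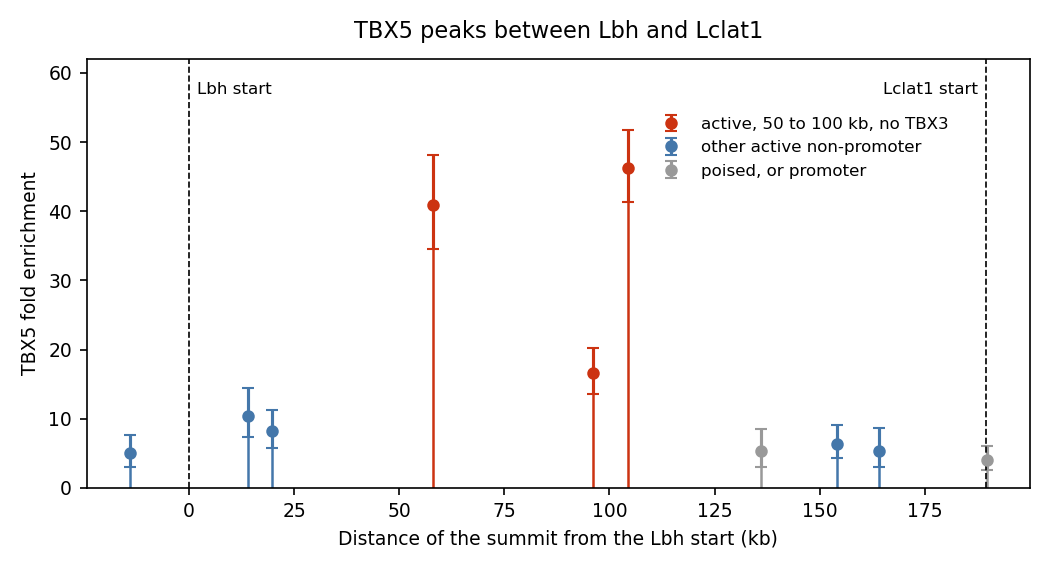
TBX5 fold enrichment of the 10 peaks around Lbh and Lclat1 against the distance of their summits from the Lbh start in kb, with 95% Poisson intervals of the pileup and dashed lines at the starts of both genes. The 3 red points, at 40.9, 16.7 and 46.3, are the active regions 50 to 100 kb from their assigned start, and the other 7 lie between 4.01 and 10.4.

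The next places went to a peak in Rabgap1l, a Rab GTPase activator (41.4-fold, 34.0 to 50.0, chr1:160448760-160449139), and to one 59.96 kb past the start of Bcl2l11, which encodes the pro-apoptotic protein BIM (40.8-fold, 34.7 to 47.7, chr2:128187347-128187747). Lrig2, a membrane protein with leucine-rich repeats, was nearest to a 40.0-fold peak (33.7 to 47.2) at chr3:104372239-104372830. Dgkk, a diacylglycerol kinase on the X chromosome, held a 39.9-fold peak (32.4 to 48.5) at chrX:6926044-6926668. Slc28a3, a nucleoside transporter, was nearest to a 38.6-fold peak (33.1 to 44.8) at chr13:58495574-58496212. The intervals of the first to the fourth peak overlap each other, as do those of the fifth to the tenth. The order within each of these groups is not settled by these counts. Of the 57 peaks of at least 20-fold, 18 (31.6%, 19.9 to 45.2) overlapped H3K9ac, 54 overlapped H3K4me1 and 28 (49.1%) lay in a gene body.

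**Figure D3:**
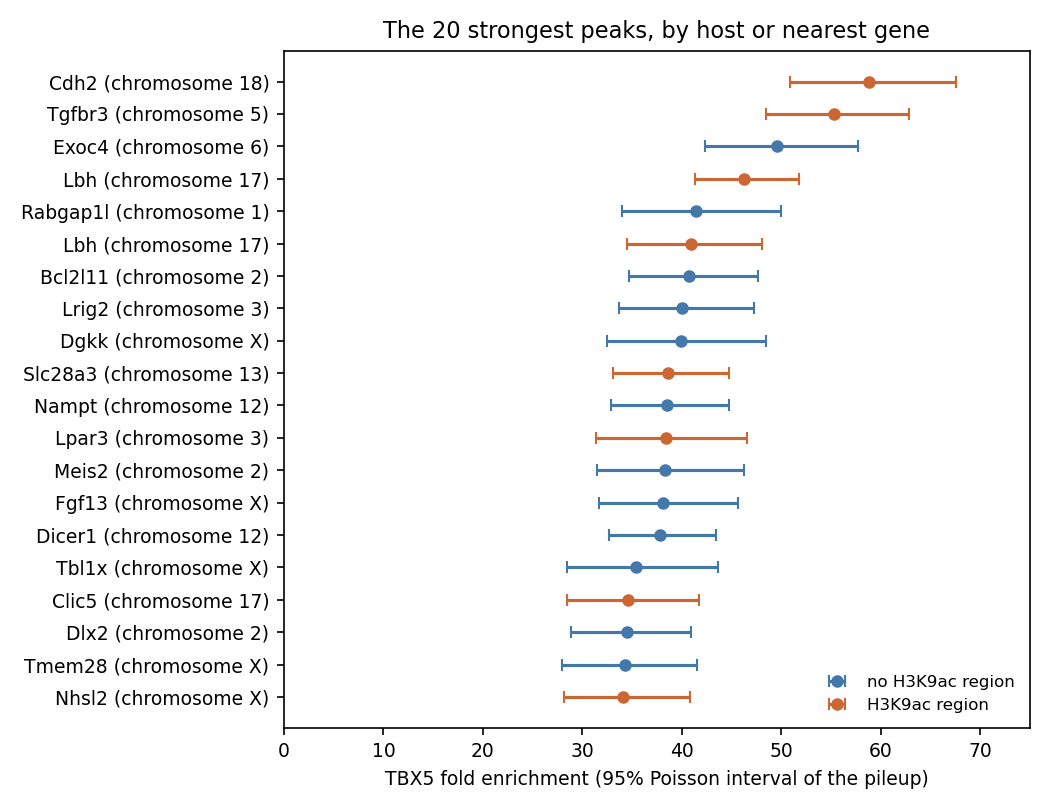
TBX5 fold enrichment with its 95% Poisson interval for the 20 strongest of the 786 regions, named by the gene that holds the summit or, failing that, the nearest gene body, in orange where the region overlaps H3K9ac. The values run from 34.0 at Nhsl2 to 58.8 at Cdh2, and neighbouring intervals overlap along the whole ranking.

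H3K27ac marked all 786 regions and H3K27me3 marked none, which the active class itself requires. H3K4me1, the usual enhancer mark, overlapped 749 (95.3%), H3K4me3 85 (10.8%, 8.73 to 13.2), H3K9ac 251 (31.9%, 28.7 to 35.3) and H3K9me3 2 (0.254%). Over all peaks, promoter peaks included, the shares were 72.3% for H3K4me1, 31.8% for H3K4me3 and 46.0% for H3K9ac. For H3K9me3 it was 0.241%, about the share here. The 2 with H3K9me3 lay in Smad3, the receptor-activated transducer of TGF-beta signals (16.8-fold, 13.2 to 21.0), and in Peak1, a pseudokinase of the cytoskeleton (8.66-fold, 5.77 to 12.5). H3K27ac with H3K4me1 alone was the pattern of 489 regions, with H3K9ac in addition that of 180, and with both H3K9ac and H3K4me3 that of 64. H3K27ac as the only mark was found at 29.

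The share with H3K9ac was lower in each more distant class. It was 50.6% (47.3 to 54.0) at 2 to 10 kb, 41.8% (39.6 to 44.0) at 10 to 50 kb, 31.9% here and 19.9% (17.3 to 22.7) beyond 100 kb, with no overlap between the intervals. Among peaks of at least 5-fold enrichment the shares were 46.8, 38.5, 28.4 and 17.96%, and among weaker peaks 58.8, 49.9, 41.0 and 26.8%, so the order was the same in both. Within the window, the share went from 36.5% (30.4 to 42.9) at 50 to 60 kb to 22.1% (13.9 to 32.3) at 90 to 100 kb, with overlapping intervals at its ends. At the same 50 to 100 kb, 56.1% (49.9 to 62.2) of active peaks with TBX3 carried H3K9ac and 4.64% (2.56 to 7.66) of poised peaks did. H3K4me3 went from 23.9% at 2 to 10 kb over 13.7% and 10.8% to 9.33% beyond 100 kb. No test was made on these shares, since peaks are not replicates of a condition and neighbouring peaks can share 1 marked region.

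**Figure D4:**
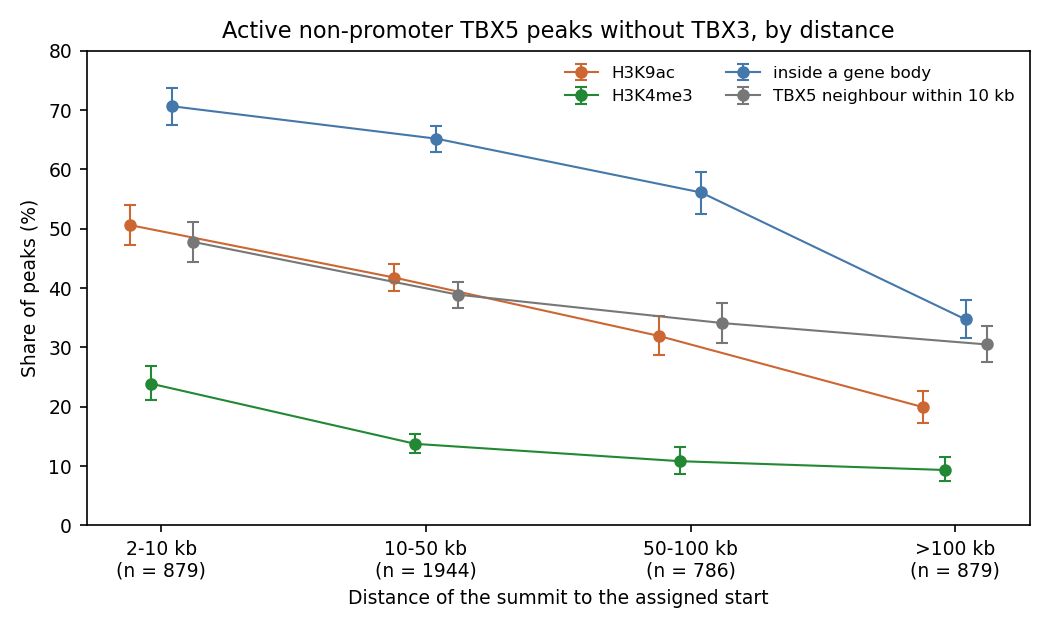
Share of active non-promoter TBX5 peaks without TBX3 in 4 distance classes that overlap H3K9ac, overlap H3K4me3, lie inside a protein-coding gene body or have another TBX5 summit within 10 kb, with exact Clopper-Pearson 95% intervals. H3K9ac goes from 50.6% at 2 to 10 kb to 31.9% at 50 to 100 kb and 19.9% beyond, and the share inside a gene body from 70.6 to 56.1 and 34.7%.

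Regions with H3K9ac were not the more enriched ones. Their median fold was 5.86 (5.58 to 6.31) against 6.38 (6.04 to 6.59) in the 535 without it, at the same median pileup of 22 fragments and a background of 2.83 against 2.35. The regions were also ordered by fold into groups of 157 or 158. From the lowest to the highest fold, 46.2% (38.2 to 54.3), 22.9% (16.6 to 30.3), 31.2%, 31.8% and 27.4% (20.6 to 35.1) carried H3K9ac. The share was largest in the group of lowest fold and showed no steady fall across the others. The median backgrounds of the groups of lowest and highest fold were 3.40 and 2.37 fragments. The part of the background in the difference between their shares was not tested. Another TBX5 summit lay within 10 kb of 43.0% (36.8 to 49.4) of the regions with H3K9ac and of 29.9% (26.1 to 34.0) of the others, and H3K4me3 overlapped 27.9% and 2.80% of them. H3K27ac came from a pair of region files: of the 586 regions marked in both, 40.3% (36.3 to 44.4) carried H3K9ac, and of the 200 marked in 1 file only, 7.50% (4.26 to 12.1). Their median folds were 6.07 (5.77 to 6.45) and 6.28 (5.96 to 6.68).

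By position, 313 regions (39.8%, 36.4 to 43.3) lay upstream of the assigned start and 473 downstream. The upstream share was 44.1% of all peaks. It was 39.2, 41.3 and 39.9% in the active classes without TBX3 at 2 to 10, 10 to 50 and over 100 kb, all inside that interval. The summit lay inside a protein-coding gene body in 441 (56.1%, 52.6 to 59.6), against 58.8% of all peaks, inside that interval, and 70.6, 65.2 and 34.7% of the classes at 2 to 10, 10 to 50 and over 100 kb. Inside a body lay 63.8% of the downstream and 44.4% of the upstream regions. Exons and introns were not told apart, since the gene table gives bodies only. Another TBX5 summit stood within 10 kb of 268 regions (34.1%, 30.8 to 37.5), against 32.9% (32.1 to 33.7) of all peaks, which lies inside that interval. The share was 38.9% at 10 to 50 kb, 30.5% beyond 100 kb and 21.2% (16.7 to 26.2) among poised peaks at the same distance. At least 1 neighbour was another of the 786 for 169 regions, an active peak with TBX3 for 70 and a poised peak without TBX3 for 34, and a region can count under several of these. In 36 regions the next summit was within 650 bp, the upper size of the sequenced fragments, so some fragments can count toward both.

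In 6 groups, 3 or more regions had successive summits within 10 kb of each other. The group with the most, 5 regions over 8.55 kb on chromosome 15, lay in Trio, with folds of 4.03 to 5.87. A sixth region of Trio had 10.8-fold enrichment, which made it the gene with the most of these regions. Nearest to Dph5, an enzyme of diphthamide synthesis, 4 regions over 5.68 kb had folds of 4.41, 4.61, 21.0 and 6.24. The strongest lies 68.5 kb from the Dph5 body. All 4 were assigned to the start of A930005H10Rik, whose sequence is shown above. Those of 4.41 and 4.61-fold lay below the 5.35-fold peak at that start. At Grb10, an adaptor that dampens insulin signalling, 3 regions had folds of 17.5, 6.46 and 6.56. At Stim2, a calcium sensor of the endoplasmic reticulum, they had 8.07, 7.25 and 5.78, and at Cxcl12, a chemokine that guides coronary vessels, 3.42, 7.94 and 5.13. In each of the groups at Tgfbr3, Dph5 and Grb10, the interval of 1 peak lay above those of all the others.

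Of 21627 protein-coding genes, 580 (2.68%) held 1 of the 786 regions or were the nearest gene to it, 425 of them with a single region. With 4 regions each stood Bach2, Baz2b, Bcl9, Dph5, Fndc3b, Megf10, Rabgap1l, Stim2, Ypel2 and Zfp608. The 28 genes with 3 included Cdh2, Tgfbr3, Lbh, Camk2d, the homeobox gene Msx2, the Notch coactivator Maml3, the growth factor homologue Fgf13 (5.13, 31.1 and 38.2-fold), the lysophosphatidic acid receptor Lpar3 (5.30, 21.9 and 38.4-fold) and Zfp703 (12.0, 13.2 and 26.0-fold). The others were Ano10, Chst11, Cxcl12, Dennd1a, Gatb, Gm38821, Grb10, Inpp5a, Itga1, Lrig2, Magi1, Nfib, P3h2, Palld, Rad51b, Serp2, Synpo2, Tg and Vwa8, with folds from 3.03 to 40.0. Genes with a region were long, with a median body of 121.4 kb against 17.3 kb for all protein-coding genes. The rule itself favours this, since a summit inside a gene and over 50 kb from its start needs a gene longer than 50 kb.

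From 14 lists of 303 genes, 37 genes (12.2%) had a region, beside 2.68% of all protein-coding genes, and list genes are longer too (median 46.1 kb). Over 50 kb in length, 32 of 140 list genes (22.9%) had one and 425 of 4940 genes in all (8.60%). Up to 50 kb, it was 5 of 163 (3.07%) and 155 of 16687 (0.929%). The lists were drawn up with earlier results of these data known, and the counts are a description.

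Cardiac transcription factors had a region at 9 of 38 genes. The strongest lay in Meis2, a homeobox partner of HOX and PBX factors, at chr2:115962731-115963123, with 38.3-fold enrichment (31.5 to 46.3). In Prdm16, a regulator of ventricular compaction, a peak at chr4:154393335-154394177 had 20.02-fold enrichment (16.6 to 23.9). Near Prox1, which cardiomyocytes and lymphatic endothelium use, a peak had 14.1-fold enrichment (10.9 to 18.01), and near Myocd, the coactivator of SRF in muscle, one had 7.32-fold (4.91 to 10.5). The Meis2 peak stood above the intervals of the other 11 peaks of this list, and that of Prdm16 overlapped that of Prox1. The weakest was a 3.75-fold peak in Foxp1 (2.24 to 5.95), and Klf13, Gata6, Tbx20 and Meis1 had 1 peak each.

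Calcium handling had 5 of 20 genes. A peak 57.5 kb upstream of Atp2b1, the calcium pump of the plasma membrane, at chr10:98857516-98857862, had 22.2-fold enrichment (16.7 to 28.8). Ryr2, the release channel of the sarcoplasmic reticulum, was the nearest gene to a 9.26-fold peak (5.96 to 13.8), 120.1 kb from its body, whose assigned start was that of Zp4-ps. In Camk2d the strongest of 3 peaks was the 8.57-fold peak given with the sequences, and in Cacnb2, a subunit of the L-type calcium channel, a peak had 7.06-fold enrichment (4.87 to 9.93). The Atp2b1 peak alone lay above the intervals of the other 8 peaks of the list, among them 1 at Stim1.

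Ion channels and conduction had 4 of 30 genes. Irx3, a homeobox factor of the His-Purkinje system, had peaks of 10.6-fold (7.34 to 14.8) at 71.2 kb upstream and 5.24-fold (2.90 to 8.85) at 54.4 kb downstream, both with all of H3K27ac, H3K4me1, H3K9ac and H3K4me3. Cacna1c, the pore of the L-type calcium channel, held a 7.36-fold peak (4.78 to 10.9) and a 4.37-fold peak (2.48 to 7.26), and Kcnd3, of the transient outward potassium current, a 5.20-fold peak (3.24 to 7.98). Kcnq1, of the slow delayed rectifier, held one of 4.63-fold (2.92 to 7.04). The interval of the stronger Irx3 peak lay above those of Kcnq1 and the weaker Cacna1c peak and overlapped the other 3.

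In the sarcomere list, 3 of 32 genes had a region. Synpo2, an actin-bundling protein of the Z-disc, held 3, at 15.0-fold (11.2 to 19.6), 7.06-fold (5.00 to 9.71) and 6.01-fold (3.87 to 8.97). The last of these was assigned to the start of Myoz2, the neighbouring gene of a calcineurin-binding Z-disc protein. Nebl, which anchors thin filaments, held a 6.01-fold peak (3.87 to 8.97), and Ankrd1, a stretch-responsive partner of titin, was nearest to one 94.9 kb upstream (5.49-fold, 3.45 to 8.34).

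BMP and TGF-beta signalling had 5 of 32 genes. Beside Tgfbr3 and Smad3, the ligand gene Bmp7 held a 14.46-fold peak (10.8 to 18.9) at chr2:172875817-172876215 and a 4.34-fold peak (2.35 to 7.47) 4.38 kb from it. Ltbp1, which stores latent TGF-beta in the matrix, held a 4.32-fold peak (2.49 to 7.05), and Smad6, an inhibitor of BMP signals, the weakest of all 786 (2.71-fold, 1.64 to 4.24). In the Wnt, FGF, Notch and hedgehog list 1 of 35 genes had one, the FGF antagonist Spry2 (4.49-fold, 2.54 to 7.45).

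Cell adhesion, matrix and cytoskeleton had 4 of 24 genes. Beside Cdh2, Ctnna3, the alpha-catenin of the intercalated disc, held an 8.21-fold peak (5.97 to 11.03), Itga9 2 peaks of 4.41-fold (2.74 to 6.77) and 3.88-fold (2.15 to 6.56) whose summits lie 441 bp apart, and Tns1, a focal adhesion protein, a 4.16-fold peak (2.44 to 6.70). Energy metabolism regulators had 2 of 20, the nuclear receptor gene Esrrg (7.17-fold, 4.65 to 10.6, and 5.65-fold, 3.26 to 9.22) and the coactivator gene Ppargc1b (5.55-fold, 3.85 to 7.77).

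Among marker genes of other cells, endothelium and endocardium had 2 of 16 genes with a region. Erg, an endothelial ETS factor, had 2, at 15.1-fold (12.0 to 18.8) beyond the gene and 6.62-fold (4.51 to 9.41) inside it, and Flt1, a VEGF receptor, 1 of 6.01-fold (3.87 to 8.97). Epicardium and fibroblast, smooth muscle, blood and hepatocyte genes had 0 of 43, which allows a share of up to 6.98% (taken as 3 of 43, not a Clopper-Pearson bound), and 1 of 12, 1 of 8, 2 of 11 and 1 of 12 of those genes are longer than 50 kb. Neuronal genes, which should be silent in most heart cells, had 2 of 14. One was the peak nearest to Stmn2, at chr3:8602815-8603508, with 19.1-fold enrichment (15.0 to 24.0), whose assigned start was that of Hey1, a Notch target of the endocardium and atria. The other was Neurod1 (7.29-fold, 4.48 to 11.3).

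The deposited distance could be matched to the base to a RefSeq start for 499 regions, 393 in the table of starts and 106 at a gene body edge. Of these, 387 belonged to protein-coding genes and 84 to long non-coding RNAs. In 142 regions the summit lay inside the gene of its assigned start and in 125 inside another gene. Outside genes, the nearest body was that of the assigned gene in 138 and another in 94. For 287 regions no start matched. A gene named here is therefore the host or the nearest body, which need not be the gene of the assigned start.

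A TBX5 promoter peak within 2 kb of the assigned start accompanied 93 of the 499 regions (18.6%, 15.3 to 22.3), at 77 starts. The share was 25.7% (22.1 to 29.6) at 2 to 10 kb, 20.8% (18.5 to 23.1) at 10 to 50 kb and 17.1% (14.3 to 20.3) beyond 100 kb. At the same 50 to 100 kb it was 24.4% (18.2 to 31.5) in active peaks with TBX3. In poised peaks without TBX3 it was 17.1% (12.1 to 23.2), an interval that contains the share here. Over all matched peaks, promoter peaks included, it was 39.9%. In 65 of the 93 pairs the distal region had the higher fold, with a median ratio of 1.27 (1.17 to 1.497). Pairs that share a start repeat its promoter fold, and this interval treats all pairs as independent. The median folds were 5.52 at the distal regions and 4.36 at the promoters. Median pileups were 22 fragments over the 93 regions and 23 over the 77 promoter peaks, and median backgrounds 2.83 and 4.24. These medians are not paired, and the part of the background in the difference of folds was not tested.

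Single pairs differed far more, and those named here were chosen after their values were seen. The ratio was 20.6 at Cdh2 and 11.6 at Lclat1. At Bcl2l11 the distal peak had 40.8-fold enrichment from 155 fragments and the start 5.64-fold (3.99 to 7.75) from 36. At Hey1 the values were 19.1 and 3.35 (2.23 to 4.85), and at Bmp7 14.46 and 3.46 (2.22 to 5.16). The reverse was found at Mef2a, a cardiac MADS-box factor, with 5.11-fold (3.57 to 7.12) at 74.0 kb and 17.1-fold (14.3 to 20.4) at the start, and at 9430078K24Rik with 5.75-fold (3.66 to 8.65) against 24.0-fold (18.9 to 30.1). In all of these pairs the counting intervals of the distal peak and the start do not overlap.

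**Figure D5:**
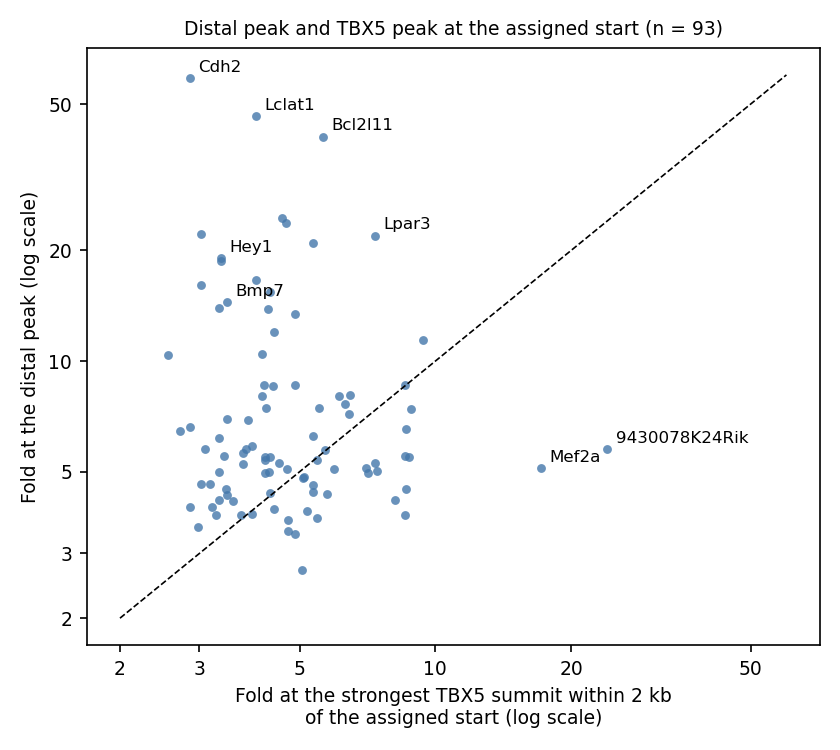
TBX5 fold enrichment at the 93 distal regions against the fold at the strongest TBX5 summit within 2 kb of their assigned start, both on log scales, with a dashed line where they are equal. Of the 93 points 65 lie above the line, Cdh2 (58.8 against 2.85) farthest, and Mef2a and 9430078K24Rik lie far below it.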

How the data were processed

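Chromatin of dissected CD-1 hearts at E14.5 was precipitated with an anti-TBX5 antibody (2 samples) or kept as input (1 sample), and fragments of 200 to 650 bp gave single-end reads of 50 bases, per the labels' protocols. Per the submitters' processing notes, the tools were MACS2, Bowtie2, ChIPseeker and SAMtools on mm10, without versions or settings. Replicates were pooled before a single peak call, per the file headers and names. Each deposited fold is the authors' ratio of pooled ChIP over local background at the summit. Each −log10 p and −log10 q was deposited by the authors with that call, as was a score equal to 10 times −log10 q. These values rank and filter peaks of this list and serve no comparison between samples. Overlaps with mark and TBX3 regions, distances and chromatin classes are the authors' columns. A mark with a pair of region files counted if either overlapped.

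The sources used here state no read depth. Pileup and background were solved from the fold, (pileup + 1)/(background + 1), and −log10 p as an upper Poisson tail. All 12436 peaks matched within 0.0005 (largest misfit 0.000242), and in 400 simulated peaks the pileup was recovered in 100% of cases. Folds carry the exact 95% Poisson interval of the pileup, shares an exact Clopper-Pearson interval and medians an exact order-statistic interval. These treat peaks as independent and cover counting error only. PCR duplicates cannot be seen in them.

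Genes are RefSeq GRCm38.p6 (the assembly of mm10), protein-coding bodies on chromosomes 1 to 19 and X. All 303 list genes matched. A motif search planned for the peaks needed a genome and was made in the 250 bases before RefSeq starts instead. Genes were named by fixed rules: the 10 strongest peaks, up to 4 peaks for each list, genes with 3 or more peaks, groups of peaks within 10 kb, peaks at the window limits, the 5 weakest peaks as a range and the largest background. For several lists, peaks beyond these 4 are named as well, outside the rules. Other names outside these rules are given as chosen after their values were seen or belong to a mark or sequence shown. The regions, lists and rules were chosen with earlier results of these data known. Alternatives in window, threshold, TBX3 overlap, chromosome, neighbour distance and gene assignment were tried. Python 3.11.15 was used with scipy 1.17.1, pandas 2.3.3, matplotlib 3.10.9 and numpy 2.4.6.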

Additional observations from a re-analysis of the deposited data

How the results depend on the processing

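Of the values recomputed under another setting for the main results, 64 stayed within their 95% interval, or within 1.5 times for a count, and 21 moved. None changed direction, since none has a sign. The number of regions was 459 in a window of 60 to 90 kb, 286 when the distance was taken to the nearest gene body and 375 at −log10 q of at least 10. At −log10 q of at least 10, the median fold was 9.45, the pileup 34, the width 327 bp, the share of at least 20-fold 15.2%, and 21 list genes had a region in place of 37. At a fold of at least 5, the share with −log10 q of at least 10 was 66.0%, H3K9ac 28.4%, the pileup 26, the background 2.23 and the width 288 bp. With TBX3 peaks included, H3K9ac was 38.0% and the background 2.83. Counting a mark only where both region files agreed gave 73.9% for H3K4me1, 5.47% for H3K4me3 and 74.6% for H3K27ac. By list, the sarcomere had 1 gene with a region at that q and 5 when any gene body within 100 kb counted, and the Wnt, FGF, Notch and hedgehog list 0 and 3. Neighbours were found for 23.5% within 5 kb, 66.5% within 50 kb and 29.9% among active peaks only. The stricter thresholds remove weak peaks, which moves these medians by construction; for the other changes the cause was not tested. No paired analysis was possible because the peaks were called once on pooled replicates, so leaving out a replicate was not possible either. Depth limits the weakest regions: at the median pileup of 22 fragments the counting interval of a fold is wide, and many folds overlap.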

Other observations

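The X chromosome held 17 of the 786 regions, and a look at them was added after the data were seen. Enrichment of at least 20-fold was reached by 6 of them (35.3%, exact Clopper-Pearson 95% interval 14.2 to 61.7), at Dgkk, Tbl1x, Tmem28, Nhsl2 and, with 2 peaks, Fgf13, a regulator of sodium channels. On the autosomes it was 51 of 769 (6.63%, 4.98 to 8.63). In wider sets the shares lay closer together, with 8 of 48 on X (16.7%, 7.48 to 30.2) against 6.49% on the autosomes for all active non-promoter peaks without TBX3, and 10 of 152 (6.58%, 3.20 to 11.8) against 4.04% for all peaks. Both wider sets contain the 17 regions, and so the same 6 peaks, and are not separate evidence. The median folds were 6.04 on X (5.13 to 34.0) and 6.20 on the autosomes (5.92 to 6.45), and the median backgrounds 1.98 and 2.52 fragments. The labels do not state the sex of the embryos, and the copy number of X in the pooled hearts was not analysed here.

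No H3K4me1 region overlapped 7 of the 17 (41.2%, 18.4 to 67.1), among them 2 of the 3 Fgf13 peaks, against 30 of 769 on the autosomes (3.90%, 2.65 to 5.52). Both H3K4me1 files marked 2 of 17 and 579 of 769 (75.3%), while both H3K27ac files marked 15 of 17 and 571 of 769 (74.3%). Over all active non-promoter peaks without TBX3, 19 of 48 on X (39.6%, 25.8 to 54.7) and 231 of 4440 on the autosomes (5.20%, 4.57 to 5.90) had no H3K4me1 region. These 48 include the 17. The cause was not tested.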
